A study of Homo sapiens with 19 samples.

Results

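ERRα binding was examined near 6 genes known for their response to oestrogen, of the 20136 protein-coding genes in the annotation. They are the trefoil factor genes TFF1, TFF2 and TFF3, and GREB1, PDZK1 and CA12. The genes were chosen by name. For each of them, every ERRα peak was taken whose centre lay within 20 kb of an annotated transcription start on hg19 (GRCh37). In all, 114 peaks in 8 lists met this rule, and peaks that overlapped between lists were merged into 32 sites.

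The study mapped ERRα by chromatin immunoprecipitation and sequencing (ChIP-seq) in breast cancer cell lines with amplified HER2, to see how signalling through the EGF and HER2 receptors affects its binding. SKBr3 and BT-474 cells were starved of serum for 24 h and then received vehicle (PBS), 100 µM EGF or 100 µM heregulin (HRG) for 90 min, doses as labelled. Untreated parental SKBr3 cells (pSKBr3) and lapatinib-resistant LRSKBr3 cells, kept in 2 µM lapatinib, were also mapped. Each SKBr3, pSKBr3 and LRSKBr3 list pools 2 ChIP libraries against 1 input, and each BT-474 list has 1 ChIP library against the input of vehicle-treated cells. SKBr3 is known as an oestrogen receptor-negative line and BT-474 as a positive one. The lists hold no expression, so neither the receptor status nor the lines themselves could be checked. LRSKBr3 is a line selected in drug, and it differs from pSKBr3 in both selection and the lapatinib present.

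ERRα (ESRRA) is an orphan nuclear receptor that does not bind oestrogen. It recognises an extended half-site, TCAAGGTCA, named the ERR response element (ERRE). Its shorter core AAGGTCA contains the half-site of the oestrogen response element (ERE), which the oestrogen receptor binds as a palindrome of GGTCA and TGACC with 3 free bases between them. The trefoil factors are small secreted peptides that protect mucosal surfaces, and TFF1 is a long-used marker of oestrogen action in breast cancer cells. GREB1 is a chromatin-bound partner of the oestrogen receptor, PDZK1 a scaffold protein with PDZ domains, and CA12 a carbonic anhydrase of the cell surface.

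The stretches below carry words that lie under peaks of these genes. Each is read 5′ to 3′ from GRCh37 on the strand of its gene, and capitals mark the ERRE core, the ERE or the AP-1 words TGACTCA and TGAGTCA. AP-1 is the Jun/Fos factor that acts downstream of growth factor signalling.

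The first, at chr21:43786978-43787118 on the minus strand, lies upstream of TFF1, with its ERRE core 404 bp before the start. It is the stretch of the TFF1 promoter known for an imperfect ERE, and its best match to the ERE word had 1 mismatch.
TFF1 upstream: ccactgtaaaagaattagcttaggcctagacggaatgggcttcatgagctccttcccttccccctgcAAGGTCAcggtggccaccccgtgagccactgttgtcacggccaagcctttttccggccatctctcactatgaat

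The second, at chr21:43759437-43759577 on the minus strand, lies 11.6 kb downstream of the TFF2 start, between TFF2 and TFF3. It is shown because it lies under a peak in the 3 SKBr3 lists, in pSKBr3 and in LRSKBr3. The BT-474 peaks of the same merged site end before it.
TFF2 downstream: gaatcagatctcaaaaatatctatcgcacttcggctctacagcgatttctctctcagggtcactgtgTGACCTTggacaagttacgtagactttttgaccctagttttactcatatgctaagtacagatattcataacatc

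The next 3 are from introns of GREB1 on the plus strand, at chr2:11664662-11664802, chr2:11672596-11672736 and chr2:11702242-11702382. The first of them has an ERE that overlaps an ERRE core on each strand, and the second has an ERE alone. The third holds an ERRE core and an AP-1 word with 3 bases between them, at a site called in all 8 lists.
GREB1 ERE with ERRE cores: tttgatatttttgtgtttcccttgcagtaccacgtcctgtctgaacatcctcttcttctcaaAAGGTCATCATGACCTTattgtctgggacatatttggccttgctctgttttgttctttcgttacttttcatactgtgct
GREB1 ERE alone: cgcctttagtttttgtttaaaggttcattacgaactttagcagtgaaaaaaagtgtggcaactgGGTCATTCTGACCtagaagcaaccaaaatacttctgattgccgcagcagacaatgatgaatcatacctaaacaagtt
GREB1 shared intronic: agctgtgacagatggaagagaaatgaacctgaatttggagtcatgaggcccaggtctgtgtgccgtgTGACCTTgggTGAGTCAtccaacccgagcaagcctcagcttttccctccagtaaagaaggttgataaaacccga

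The last 2 are from distal sites upstream of CA12 and PDZK1. The CA12 stretch, at chr15:63687968-63688108 on the minus strand, has 3 AP-1 words about 14.0 kb upstream of the gene. The PDZK1 stretch, at chr1:145713597-145713737 on the plus strand, has an ERRE core 13.3 kb upstream of PDZK1, in an intron of CD160.
CA12 upstream: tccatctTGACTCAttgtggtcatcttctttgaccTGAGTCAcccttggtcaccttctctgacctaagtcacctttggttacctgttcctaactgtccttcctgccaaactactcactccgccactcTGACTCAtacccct
PDZK1 upstream: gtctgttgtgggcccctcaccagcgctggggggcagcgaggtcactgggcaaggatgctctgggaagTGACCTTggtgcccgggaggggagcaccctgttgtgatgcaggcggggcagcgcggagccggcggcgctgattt

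The strength of a peak is given below as the percentile of its score, that is, the percentage of peaks in the same list with a lower score, with peaks of equal score counted as evenly above and below. A percentile also depends on how many peaks a list holds, so an order between lists is stated for a peak only where the number of peaks that scored as high or higher gave the same order. The deposited score is the log10 of its P value times −10. It starts at 50 and grows with sequencing depth, which is unknown here. Scores were therefore not used to compare the strength of peaks between lists. The P cutoffs tried below apply the same score limit to every list, so they too depend on depth. With 1 list per condition there is no spread between replicates, so no difference between lines or treatments was tested, and all comparisons are descriptions of these lists.

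A peak within 20 kb is common in these data. Of all protein-coding genes, 54.2% had one in the SKBr3 vehicle list, 56.3% on EGF and 66.4% on HRG. The shares were 53.0%, 42.3% and 55.4% in the BT-474 vehicle, EGF and HRG lists, 57.2% in pSKBr3 and 70.0% in LRSKBr3. Against these shares, 4, 5 and all 6 of the 6 genes had a peak in SKBr3 on vehicle, EGF and HRG. In BT-474 the corresponding numbers were 6, 4 and 6 genes, and they were 4 in pSKBr3 and 5 in LRSKBr3. GREB1, CA12 and TFF2 had a peak in all 8 lists, PDZK1 in 7, TFF1 in 6 and TFF3 in 3. With shares this high and only 6 genes, little can be read from these counts, and the place and rank of the peaks are given gene by gene below.

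**Figure D1:**
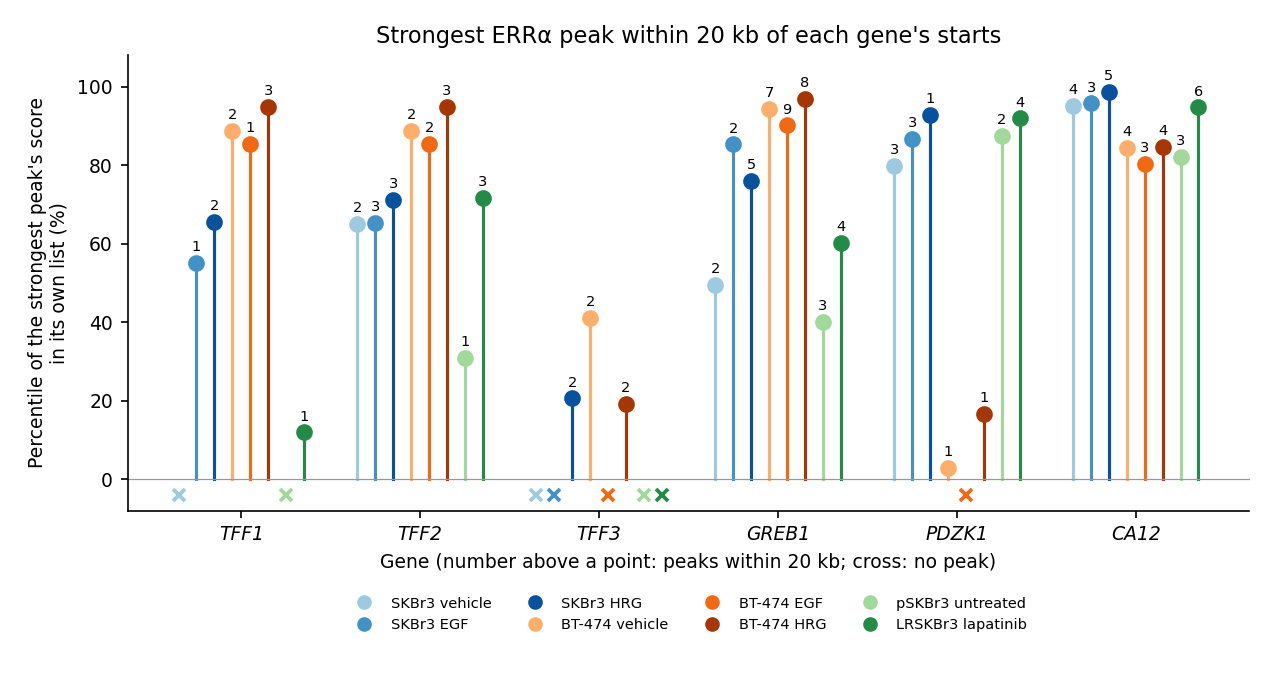
Percentile of the score of the strongest ERRα peak within 20 kb of a start (vertical axis, % of the peaks of the same list with a lower score) for the 6 genes in the 8 lists, with the number of peaks above each point and a cross where there was none. TFF1 and GREB1 ranked higher in the 3 BT-474 lists than in the SKBr3 lists, PDZK1 ranked lower in BT-474, and CA12 was at 80.4 or above in all lists.

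TFF1 lies on the minus strand at chr21:43782391-43786644 and has 1 annotated start. No peak lay within 20 kb of it in SKBr3 cells on vehicle. On EGF a single peak appeared at the promoter, centred 298 bp upstream of the start, with a score of 175 at percentile 55.1. On HRG the promoter peak was centred 586 bp upstream, with a score of 247 at percentile 65.6. In BT-474 cells the promoter already had a peak on vehicle, centred 219 bp upstream at percentile 88.7. It remained at percentile 85.5 on EGF and stood at 94.9 on HRG, where 2107 of the 41271 peaks scored as high or higher. Thus all 3 BT-474 lists ranked the TFF1 promoter above both growth factor lists of SKBr3.

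The stretch printed above for TFF1 lies inside the promoter site, and a second ERRE core lies 262 bp upstream of the start. The promoter site was absent from pSKBr3 and from LRSKBr3. The only TFF1 peak in LRSKBr3 lay in an intron of the gene, 2.84 kb downstream of the start, and ranked at percentile 11.9. A peak over that intron was found elsewhere only in BT-474 on HRG, at percentile 13.8. LRSKBr3 thus counts as having a TFF1 peak without one at the promoter. In BT-474 a further site about 9.92 kb upstream, in an intron of TMPRSS3, was called on vehicle at percentile 36.8 and on HRG at 17.7.

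TFF2 (chr21:43766466-43771106, minus strand) starts 15.5 kb downstream of TFF1, so the TFF1 promoter is within its window too, and 8 peaks were assigned to both genes. The window rule also gives 9 of the peaks near TFF1 to TMPRSS3, the neighbouring gene of a membrane serine protease. Apart from the shared peaks, TFF2 had a merged site of its own about 12.3 kb downstream of its start, which joins a pair of neighbouring peaks. The farther peak, about 12.9 kb from the start, ranked at percentile 65.1 in SKBr3 on vehicle and 65.2 on EGF. On HRG 1 peak at percentile 71.2 covered both places. In BT-474 the farther peak ranked at percentile 27.6, 8.48 and 23.1 on vehicle, EGF and HRG, and in LRSKBr3 at 71.6, and it was not called in pSKBr3. The nearer peak, 11.5 kb from the start, covers the printed stretch. It ranked at percentile 55.1 in SKBr3 on vehicle, 40.4 on EGF and 30.8 in pSKBr3, and in LRSKBr3 25461 of the 39777 peaks scored as high or higher. The TFF1 promoter thus ranked higher in BT-474 than in SKBr3 wherever it was called, and the farther peak downstream of TFF2 ranked higher in SKBr3.

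Nearer to the TFF2 start there was 1 peak only, 1.41 kb upstream, in SKBr3 on HRG and at percentile 36.8.

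TFF3 (chr21:43731777-43735519, minus strand) starts 35.6 kb downstream of TFF2 and had the fewest peaks, 6 over the 8 lists. In SKBr3 it had peaks on HRG alone, centred 4.41 kb and 5.67 kb upstream and ranked at percentiles 20.6 and 20.5. The first of these centres was at 4413 bp upstream and the ERRE core nearest to it at 4411 bp upstream. In BT-474 on vehicle a peak covered the start, centred 222 bp upstream, at percentile 30.5, and another lay 15.6 kb upstream at 41.1. The latter site was also called on HRG, at percentile 19.2, beside a further peak 14.1 kb upstream at 18.6. No TFF3 peak was called in BT-474 on EGF, in SKBr3 on vehicle or EGF, or in pSKBr3 or LRSKBr3. All TFF3 peaks lay in the lower part of their lists, and the peak centres of the site downstream of TFF2 lay 22.4 kb or more from TFF3.

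**Figure D2:**
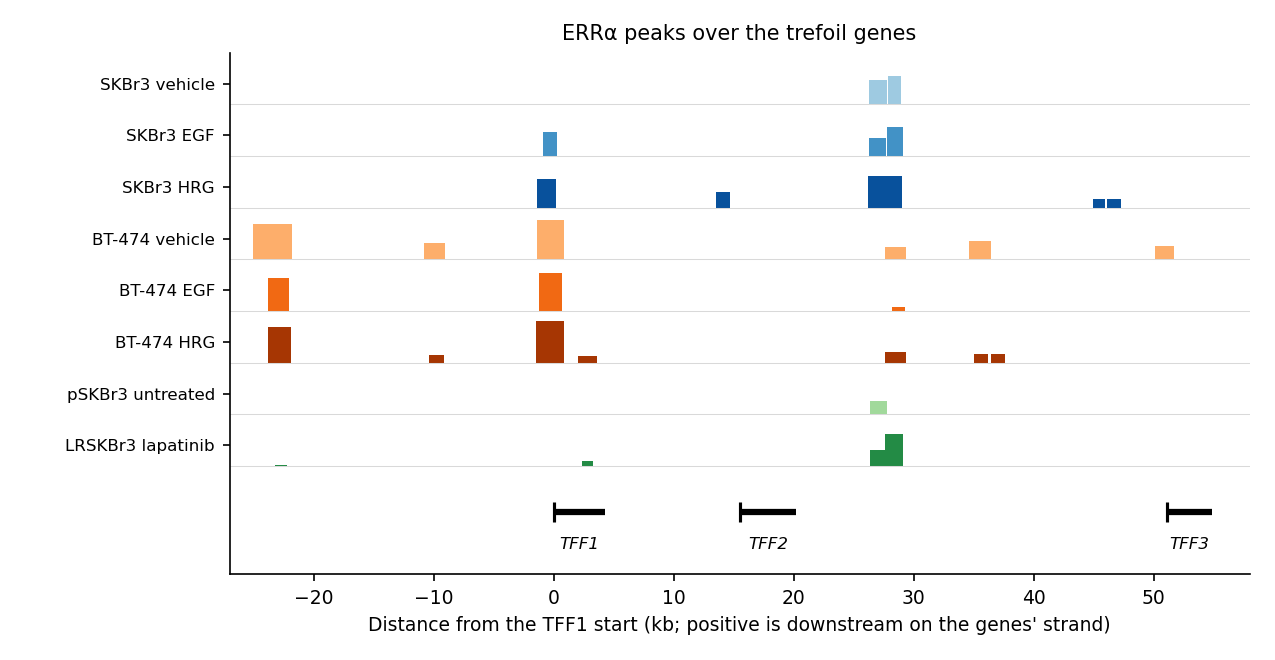
ERRα peaks over the trefoil genes in the 8 lists, by distance from the TFF1 start in kb, with bar height as the score percentile within each list and the 3 genes in black with a tick at the 5′ end; peaks beyond 20 kb of a start are also drawn. The TFF1 promoter at 0 kb has a peak in the 3 BT-474 lists and on EGF and HRG in SKBr3, and every list has at least 1 peak of the neighbouring pair between TFF2 and TFF3.

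GREB1 (chr2:11622467-11782914, plus strand) had the most peaks, 40 over the 8 lists, of which 24 were in the 3 BT-474 lists and 9 in the 3 SKBr3 lists. Its window was also the widest, 158 kb, since its 10 transcript starts span 130 kb. In BT-474, peaks covered 14.8% of that window on vehicle, 11.4% on EGF and 15.8% on HRG. In SKBr3 they covered 1.82%, 1.95% and 3.55%, and in pSKBr3 and LRSKBr3 2.62% and 3.59%. Over all genes together, the covered part of the windows was 3.39%, 2.16% and 3.73% in BT-474 and 2.72%, 2.84% and 3.98% in SKBr3. It was 1.94% in pSKBr3 and 4.17% in LRSKBr3. The coverage at GREB1 was thus above that of genes as a whole in the 3 BT-474 lists and in pSKBr3, and below it in the 3 SKBr3 lists and in LRSKBr3. With the 5′ end of the gene as the only start, GREB1 had 1 peak in each BT-474 list, at percentiles 93.2, 90.1 and 93.6, and in SKBr3 0, 0 and 2 peaks, the higher at 37.9, so that the larger number in BT-474 rests on the internal starts.

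The strongest GREB1 site in BT-474, on vehicle and on HRG, was a broad peak of 6461 bp and 6437 bp, centred about 51.1 kb into the gene and spanning an internal start. It ranked at percentile 94.3 on vehicle and 96.9 on HRG, and the site reached 89.8 on EGF. It includes the ERE printed above as ERE alone, 1505 bp upstream of that start. A smaller site, with the ERE overlapped by ERRE cores 9.44 kb upstream of the same start, was called on vehicle at percentile 32.9 and on HRG at 16.2. It was not called on EGF. Neither site was called in any SKBr3, pSKBr3 or LRSKBr3 list. Beside these, sites 15.9 kb into the gene (percentiles 93.2, 90.1 and 93.6 on vehicle, EGF and HRG) and 2.11 kb downstream of an internal start (percentiles 93.3, 89.4 and 94.3) were in all 3 BT-474 lists and in no other list.

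A further site, 876 bp upstream of an internal start and holding a full ERRE, ranked at percentiles 86.0, 53.2 and 82.0 in BT-474. Outside BT-474 it was called only in LRSKBr3, at percentile 15.8. BT-474 on HRG had 1 more site, 501 bp past an internal start, at percentile 55.8.

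In SKBr3 the GREB1 peaks lay mainly in a pair of neighbouring intronic sites, both called in all 8 lists. The first, 2.81 kb past an internal start, ranked at percentiles 33.9, 9.05 and 36.6 on vehicle, EGF and HRG in SKBr3, and at 80.3, 65.2 and 84.1 in BT-474. The second, 5.46 kb past that start, holds the neighbouring ERRE core and AP-1 word. It ranked at percentile 49.4 on vehicle in SKBr3, 85.3 on EGF and 75.9 on HRG. In BT-474 it ranked at 55.3, 25.6 and 72.5. On EGF this second site was therefore higher in SKBr3 and lower in BT-474 than on vehicle.

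SKBr3 on HRG had 3 GREB1 peaks that were absent on vehicle and EGF. They lay 1.06 kb into the gene at percentile 12.2, 8.12 kb past an internal start at 11.1, and 16.0 kb upstream at 37.9. The last of them lies at the start of E2F6, which encodes a repressor of the E2F family, and was also called in pSKBr3 and LRSKBr3, at percentiles 36.1 and 43.2.

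**Figure D3:**
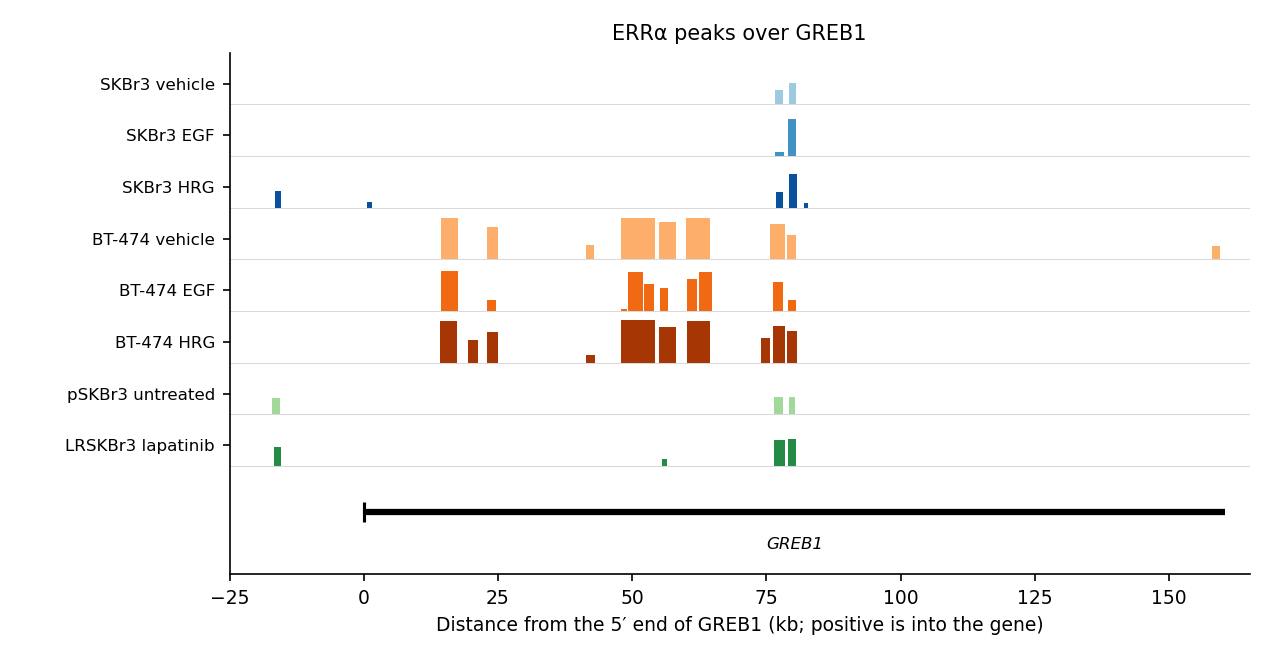
ERRα peaks over GREB1 in the 8 lists, by distance from the 5′ end of the gene in kb, with bar height as the score percentile within each list; peaks beyond 20 kb of a start are also drawn. The block of peaks between about 51.1 kb and 62.3 kb is in the 3 BT-474 lists, with 1 low peak in LRSKBr3, and the pair of sites near 77.3 kb and 79.9 kb is in every list.

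CA12 (chr15:63613577-63674045, minus strand) ranked high in every list, with 32 peaks in all. Its strongest peak was at percentiles 95.0, 95.7 and 98.6 in SKBr3 on vehicle, EGF and HRG. It was at 84.3, 80.4 and 84.7 in BT-474, 82.0 in pSKBr3 and 94.7 in LRSKBr3. Both of its upstream sites were called in all 8 lists.

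The upstream site with 3 AP-1 words, about 14.2 kb before the 5′ end, was at percentile 92.0 on vehicle in SKBr3, 95.7 on EGF and 98.6 on HRG. On HRG its score was 3100, shared by other strong peaks, and 1015 of 37195 peaks scored as high or higher. In BT-474 the same site was at percentiles 35.1, 43.4 and 63.2. In both lines it was thus higher on each growth factor than on vehicle. On HRG it was also above EGF in SKBr3. In BT-474 nearly the same number of peaks scored as high or higher on EGF (15180) as on HRG (15191), and the percentiles differ through the length of the lists. It was at percentile 31.4 in pSKBr3 and 87.4 in LRSKBr3.

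The nearer upstream site, 6.25 kb before the 5′ end, did not follow that order. Its percentiles were 95.0, 84.8 and 89.6 in SKBr3 on vehicle, EGF and HRG, and 84.3, 80.4 and 84.7 in BT-474. In SKBr3 the leading CA12 site was thus the nearer one on vehicle and the farther one on EGF and HRG, whereas in all 3 BT-474 lists it was the nearer one. An intronic site near the 5′ end, 1.08 kb past a start, was at percentile 79.6 in BT-474 on vehicle, 10.4 on EGF and 79.8 on HRG. In SKBr3 it was at 22.9 on vehicle and 56.3 on HRG, and was not called on EGF. Deeper in the gene, a site 10.8 kb past a start was called in the SKBr3 and LRSKBr3 lists alone, at percentiles 70.1, 48.2, 65.7 and 77.2. Near an internal start, a site 5.28 kb upstream was called in BT-474 on vehicle and HRG (percentiles 14.3 and 49.4), and one 7.30 kb upstream in SKBr3 on HRG and in LRSKBr3 (percentiles 22.3 and 6.36).

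PDZK1 (chr1:145726918-145764207, plus strand) had its strongest peak within 20 kb at a higher percentile in SKBr3 than in BT-474. That order depends on the distance. Within 10 kb, SKBr3 had its strongest peak at percentile 10.1 on vehicle and 54.9 on EGF and none on HRG, and BT-474 had 1 peak, on HRG at 16.6. The strongest site within 20 kb, 12.7 kb upstream, lies in an intron of CD160, which encodes a receptor of natural killer and T cells, 1386 bp from the CD160 start, so that the peaks cannot be given to one of these genes. This site ranked at percentile 79.9 in SKBr3 on vehicle, 86.7 on EGF and 92.7 on HRG. The site stood at 87.5 in pSKBr3 and 91.9 in LRSKBr3. In BT-474 it was called on vehicle alone, at percentile 2.86 with a score of 52.7, just above the lowest score kept.

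In all, 13 of the 15 peaks assigned to PDZK1 were also within 20 kb of a CD160 start. Of the other PDZK1 sites, the one 7.18 kb upstream is nearest to a CD160 start, at 4123 bp. It was at percentile 4.24 in SKBr3 on vehicle, 54.9 on EGF, 85.7 in pSKBr3 and 79.1 in LRSKBr3. It was not called on HRG or in BT-474. At the PDZK1 start itself a peak was called in BT-474 on HRG, at percentile 16.6, and in LRSKBr3, at 28.6. A site between these, 3.15 kb upstream, was called in LRSKBr3 alone, at 52.0. Within the gene, 968 bp past an internal start, a site with a full ERRE was called in SKBr3 on vehicle and EGF, at 10.1 and 2.60. BT-474 on EGF had no PDZK1 peak.

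Part of PDZK1 is duplicated in the genome, which can affect where reads align. The last 16.1 kb of the gene, from position 145748066 on, aligned to 2 other places on chromosome 1, the closer at 99.1% identity. None of the 5 PDZK1 sites lay in that part, and 0 of the 32 sites of the 6 genes had a copy elsewhere at 95% identity over 50% of its length.

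**Figure D4:**
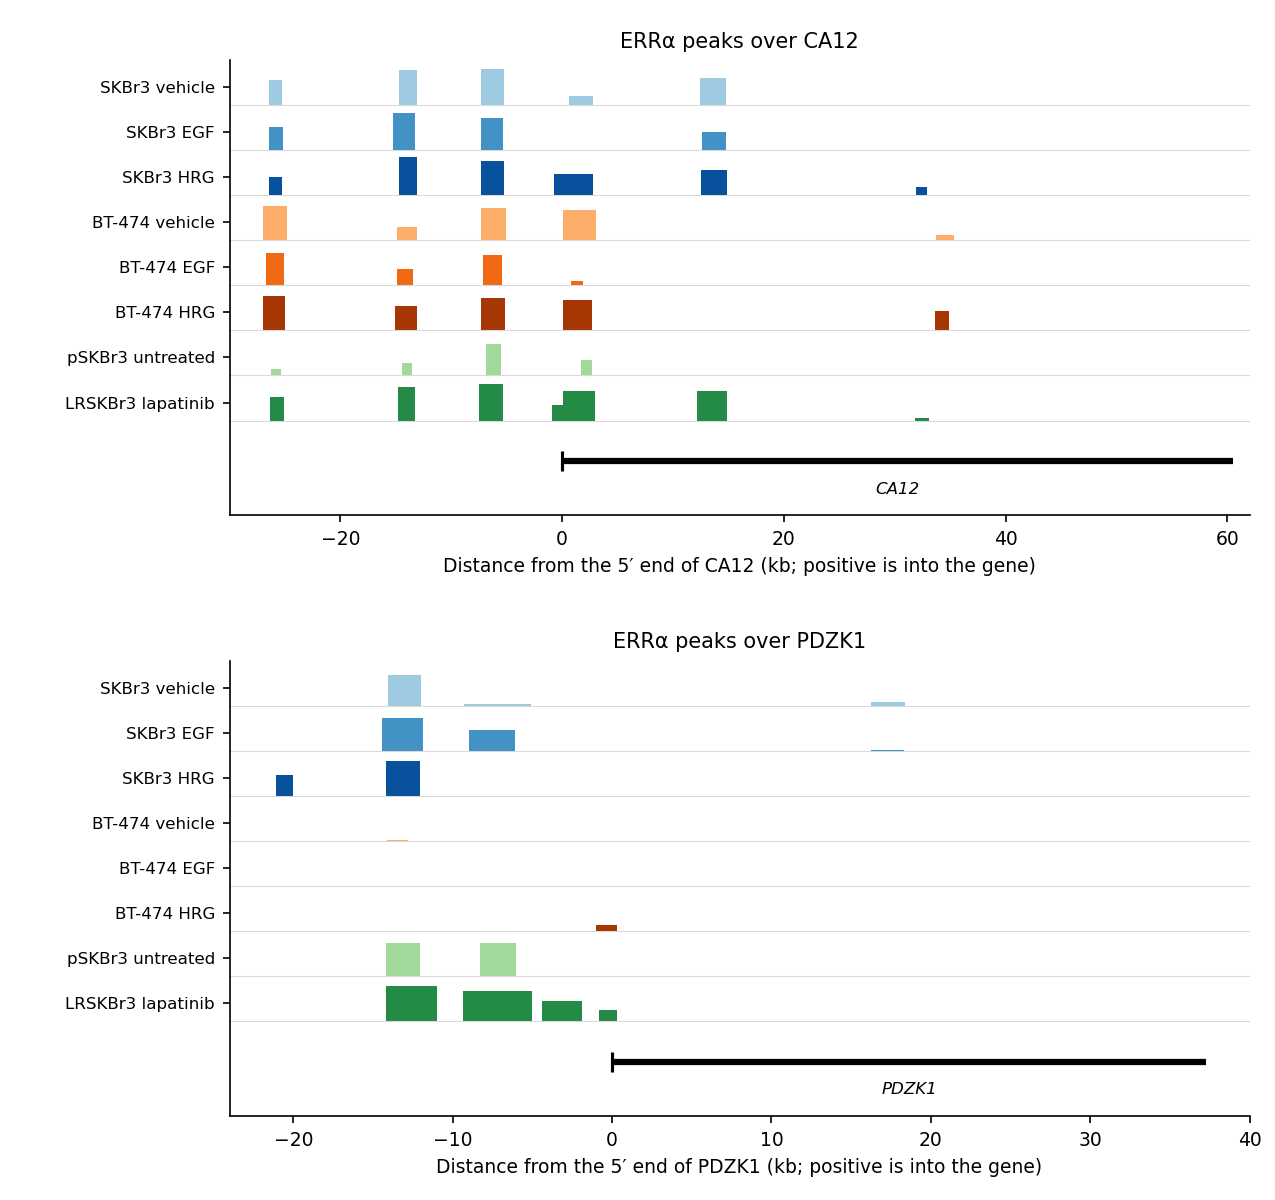
ERRα peaks over CA12 (upper panel) and PDZK1 (lower panel) in the 8 lists, by distance from the 5′ end of each gene in kb, with bar height as the score percentile within each list; peaks beyond 20 kb of a start are also drawn. The CA12 sites 6.25 kb and 14.2 kb upstream are in every list, and the PDZK1 site 12.7 kb upstream is tall in the SKBr3, pSKBr3 and LRSKBr3 lists and almost flat in BT-474 on vehicle.

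The lines were compared gene by gene under each treatment. On vehicle, TFF1 and TFF3 had a peak in BT-474 and none in SKBr3, which held for 12.2% of all genes. The reverse held for 13.4% of all genes. It could not occur among the 6, since all of them had a peak in BT-474 on vehicle. On EGF, no gene of the 6 had a peak in BT-474 and none in SKBr3 (8.18% of all genes), and PDZK1 showed the reverse (22.2%). On HRG all 6 genes had a peak in both lines, where 10.6% of all genes had one in BT-474 only and 21.7% in SKBr3 only.

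Site by site, 7 of the 20 sites called on vehicle in either line were called in both, against 34.1% of all sites near protein-coding genes. On EGF 6 of 19 were in both lines (28.5% of all sites), and on HRG 7 of 28 (25.8%). The sites in BT-474 alone were 10, 8 and 12 in that order (32.1%, 23.5% and 30.2% of all sites), and those in SKBr3 alone 3, 5 and 9 (33.8%, 48.0% and 44.0%). Of the 32 sites, 13 were called in BT-474 and not in SKBr3 (22.6% of all sites of the 8 lists near protein-coding genes), 10 in SKBr3 and not in BT-474 (38.2%), 8 in both (28.2%), and 1, upstream of PDZK1, in LRSKBr3 alone. With only peaks of P at most 1e-08 kept, 3 of 16 sites on EGF were in both lines (28.6%), and of 17 sites on HRG 6 were in BT-474 alone (28.7%) and 5 in SKBr3 alone (45.4%). On vehicle 3 of 17 were in both at P at most 1e-10 (34.4%).

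The growth factors were compared with vehicle within each line. In SKBr3, TFF1 gained a peak on EGF, as did 7.77% of all genes, and TFF1 and TFF3 did on HRG, as did 16.5%. Of the 18 SKBr3 sites, 7 were common to the 3 lists (32.4% of all sites), 8 were growth factor-induced, that is, called on EGF or HRG and not on vehicle (46.8%), and 0 were on vehicle only (9.65%). With only peaks of P at most 1e-08 kept, 5 of 12 SKBr3 sites were induced (46.2%), 1 of them on EGF alone. That one was the site 7.18 kb upstream of PDZK1, which is nearer to a CD160 start. Its peak scored 174 on EGF, above that cutoff, and 53.7 on vehicle, below it. Of the 8 induced sites of the full lists, the TFF1 promoter was the only one called on EGF. The other 7 were called on HRG alone and ranked between percentile 11.1 and 37.9, below the TFF1 promoter. No share over all induced sites is given for this split. The HRG list was also the longer, with 37195 peaks against 32567 on EGF, so little can be read from it. With each list reduced to its 22539 strongest peaks, TFF3 had no peak on HRG, whereas TFF1 still had none on vehicle and 1 each on EGF and HRG.

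In BT-474 all 6 genes already had a peak on vehicle, so none of them could gain one on EGF or HRG. Of all genes, 3.04% gained one on EGF and 8.21% on HRG. TFF3 and PDZK1 had one on vehicle and none on EGF, as did 13.7% of all genes. Of the 21 BT-474 sites, 11 were common (40.1% of all sites), 4 were growth factor-induced (31.1%) and 2 were on vehicle only (12.1%). All 4 induced sites were called on HRG alone, at percentile 13.8 to 55.8. No share over all induced sites is given for the splits by growth factor in BT-474, so little can be read from them. These BT-474 counts depend on how peaks are joined into sites. When peaks had to share 50% of both, 7 of 28 sites were common (36.7%) and 11 induced (33.7%), 7 of them on EGF alone. With centres within 500 bp, 9 of 26 were induced (36.9%), 5 of them on EGF alone. The sites on EGF alone under these rules belong, at the 1 bp overlap used here, to sites also called on vehicle. With only peaks of P at most 1e-08 kept, 2 of 17 were induced (24.4%) and 5 on vehicle only (13.5%). The BT-474 EGF list was the smallest of its line, with 26832 peaks against 32259 on vehicle and 41271 on HRG, and the part of list size in the classes of sites was not tested. With each list reduced to its 22539 strongest peaks, 4 of the 6 genes had a peak in BT-474 on EGF and 4 on HRG, against 5 on vehicle, where 38.5%, 39.5% and 42.9% of all genes did. TFF3 on HRG and PDZK1 on vehicle and HRG then had none.

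LRSKBr3 was set beside pSKBr3. The LRSKBr3 list held 39777 peaks and the pSKBr3 list 22539, and 14.7% of all genes had a peak in LRSKBr3 and none in pSKBr3. Of the 6 genes only TFF1 did, through the low intronic peak, which was absent with the LRSKBr3 list reduced to 22539 peaks. Among peaks called in both, the one at the CA12 site with AP-1 words was at percentile 31.4 in pSKBr3 and 87.4 in LRSKBr3, and that of the intronic CA12 site near the 5′ end at 41.3 and 76.6. The leading PDZK1 site differed little, at percentiles 87.5 and 91.9, and the one 7.18 kb upstream was higher in pSKBr3, at 85.7 against 79.1.

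The words were also counted over whole sites. An ERRE core was present in 20 of the 32 sites, against 53.6% of all 90452 merged sites of the 8 lists, and an AP-1 word in 17, against 36.8%. The full ERRE was in 3 of the 32 sites (12.9% of all) and the ERE in 2, both in GREB1 (0.443% of all). The median width was 1855 bp for the 32 sites and 1863 bp for all sites. Within 100 bp of the peak centre, 26 of the 114 peaks had an ERRE core, 14 an AP-1 word, 2 a full ERRE and 1 an ERE. These peaks count a site again for each list that called it. Over all peaks, the share with each word ranged between the lists from 19.9 to 27.4% for the ERRE core, from 5.70 to 12.7% for AP-1, from 5.57 to 8.10% for the full ERRE and from 0.118 to 0.242% for the ERE. The nearer CA12 upstream site, among the strongest of the 6 genes, had none of these words, which says only that these letters are absent there.

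A wider list of 46 oestrogen-responsive genes, written with earlier results of these data known, gives the pathway around the 6. In the SKBr3 vehicle, EGF and HRG lists, 31, 30 and 30 of the 46 had a peak within 20 kb (67.4%, 65.2% and 65.2%). In BT-474 the numbers were 39, 32 and 36 (84.8%, 69.6% and 78.3%), and they were 28 in pSKBr3 (60.9%) and 32 in LRSKBr3 (69.6%). The share was above that of all genes in 6 of the lists and below it in SKBr3 on HRG and in LRSKBr3. With each list reduced to its 22539 strongest peaks it was above in all 8, and with the 5′ end as the only start in 5.

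**Figure D5:**
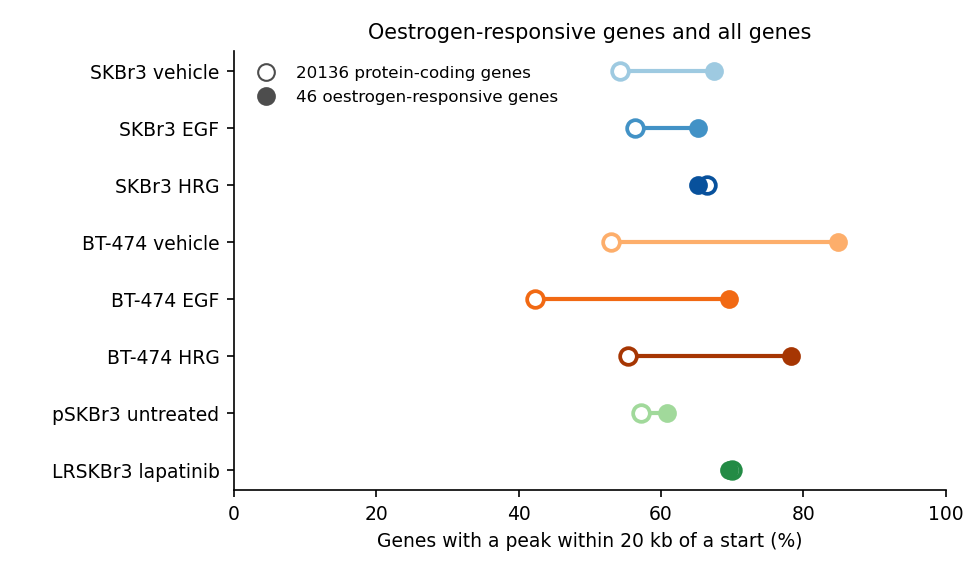
Percentage of genes with an ERRα peak within 20 kb of a start (horizontal axis) among all 20136 protein-coding genes (open circles) and among 46 oestrogen-responsive genes (filled circles) in the 8 lists. The distance between the circles is widest in the BT-474 lists, where the 46 genes stand at 84.8%, 69.6% and 78.3% on vehicle, EGF and HRG.

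Of the 46 genes, 21 had a peak in all 8 lists (45.7%, against 26.8% of all genes). A further 6 had one in all 3 BT-474 lists and in no SKBr3 list (13.0% against 3.08%). These were ESR1, which encodes the oestrogen receptor itself, RARA, a retinoic acid receptor, the transcription factor MYC, the ubiquitin ligase SIAH2, the neuropeptide Y receptor NPY1R and the kinase SGK3. On vehicle, EGF and HRG in BT-474, the strongest ESR1 peak was at percentiles 65.6, 65.4 and 74.4, that of SIAH2 at 95.0, 94.4 and 98.4, and that of RARA at 92.1, 87.5 and 90.8. RARA also had peaks in pSKBr3 (percentile 85.2) and LRSKBr3 (41.2), and ESR1 in LRSKBr3 (25.0). The reverse, a peak in all 3 SKBr3 lists and in no BT-474 list, held for CCN5, a secreted matricellular protein, and CELSR2, an adhesion receptor (4.35% against 6.58%). The highest median percentiles over the 8 lists were those of CTSD, RET, FHL2, TPD52L1 and XBP1, at 98.6 for the first 4 and 97.6 for XBP1. In the 3 SKBr3 lists, 98.6 is the percentile of peaks tied at a score of 3100. The lysosomal protease CTSD and the receptor RET had lower peaks in BT-474 than in SKBr3, with CTSD at percentiles 86.9, 72.1 and 79.4 in BT-474 and at 98.6 in all 3 SKBr3 lists.

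The genes with the most similar pattern were found by the mean absolute difference in the strongest percentile over the 8 lists, in percentage points. For TFF1 these were CXADR at 2.83 and SEL1L at 4.28, and for TFF2 OR6B1 at 3.66 and KYNU at 4.64. GREB1 was closest to SLC22A23 at 4.83 and DNASE1L3 at 4.92, and PDZK1 to RSPH3 at 2.63 and CAPN5 at 2.79. CA12 was closest to CYTH4 at 1.94 and RGS8 at 1.96. For TFF3, at 0 in 5 lists, they were ENSG00000273398 at 0.958 and ME1 at 2.36. Such closeness over 8 lists describes the pattern only.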

How the data were processed

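ERRα ChIP-seq was deposited as 8 peak lists from 19 ChIP and input samples of established cell lines. Per the labels and the methods of the study, the authors aligned reads to hg19 with BWA 0.5.9 and used SAMtools 0.1.18, and called peaks with MACS 1.4.1 (P cutoff 1e-05, bandwidth 300). The score that the authors deposited is the −10 log10 P value of each peak. The 3 SKBr3 lists carry a header line naming FindPeaks, but their peaks are named as MACS peaks and their scores also start at 50, so they were read as MACS scores. It depends on depth, which is unknown, so it was turned into a percentile within each list. The SKBr3, pSKBr3 and LRSKBr3 lists pool 2 ChIP libraries.

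Starts were all transcript starts of 20136 protein-coding genes (GENCODE lifted to GRCh37). Peaks that shared 1 bp were merged into a site, which can also join peaks through a peak of another list. Words were sought on both strands, 100 bp to each side of each peak centre or in whole sites. The best match to the ERE in each printed stretch was added after the data were seen. Printed intervals are Wilson intervals at 95% and cover counting error only.

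The 6 genes, the list of 46 and all rules were chosen with earlier results of these data known. Besides the 6, the genes named were those with a start within 20 kb of one of their peaks, the 2 most similar in pattern to each (no start within 100 kb), those of the 46 called in every list of 1 line and none of the other, and the 5 of the 46 with the highest medians. Alternatives were the distance (10, 50 and 100 kb), the P cutoff (1e-10 and 1e-08), the starts, the part of the peak, equal list size, the overlap and the word window. Copies of sites were sought with minimap2 2.31. The steps were tested on simulated data. Python 3.11.15, numpy 2.4.6, pysam 0.24.0, samtools 1.23.1 and matplotlib 3.10.9 were used.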

Additional observations from a re-analysis of the deposited data

How the results depend on the processing

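No paired analysis was possible because the deposited lists pool their replicates, and leaving out a replicate was not run for the same reason. Of the alternative values for the counts of genes, of sites and of peaks with a word, 175 stayed within 1.5 times the count given above and 29 did not. The number of the 6 genes with a peak stayed within that limit in all lists, but the limit also admits a change between 4 and 6. At 10 kb this number fell from 6 to 4 in BT-474 on vehicle and on HRG. At 50 kb it rose from 4 to 6 in SKBr3 on vehicle and in pSKBr3. At a distance of 10 kb, 10 of the peak numbers per gene and list fell to 0, as did 6 at P at most 1e-10, 5 at P at most 1e-08, 5 with lists cut to the 22539 strongest peaks and 2 with the 5′ end alone. With the 5′ end alone, 19 of the 46 genes had a peak in SKBr3 on HRG (41.3%, against 58.9% of all genes). The percentile of a gene's strongest peak in a list was compared where 1 remained. It moved beyond its counting interval in 8 cases at 10 kb, 8 at 50 kb and 26 at 100 kb. With the 5′ end alone it moved in 5 cases, and with any base of the peak in 0. It also moved in 0 under the P cutoffs and with lists of equal size, which could not move it. These rules drop only the lowest-scoring peaks, and the percentile was kept from the full list. They therefore do not test the ranks. At 100 kb GREB1 was at 98.6 in SKBr3 and 94.3 in BT-474 on EGF, and PDZK1 at 73.9 and 78.8 in BT-474 on vehicle and HRG.

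Shares in parentheses are over all sites near protein-coding genes under the same rule. With peaks shared only at an overlap of 50% of both, of 28 BT-474 sites 7 were common (36.7%), 11 growth factor-induced (33.7%) and 8 on vehicle and 1 growth factor (16.8%). With centres within 500 bp, 9 of 26 BT-474 sites were induced (36.9%) and 1 of 21 SKBr3 sites was on vehicle only (11.5%). At P at most 1e-08, of 12 SKBr3 sites 5 were induced (46.2%) and 1 on vehicle and 1 growth factor (11.3%), and of 17 BT-474 sites 2 were induced (24.4%), 5 on vehicle only (13.5%) and 2 on vehicle and 1 growth factor (18.6%). At that cutoff 3 of 16 sites on EGF were in both lines (28.6%), and of 17 on HRG 6 were in BT-474 only (28.7%) and 5 in SKBr3 only (45.4%). At P at most 1e-10, 0 of 12 SKBr3 sites (11.2%) and 2 of 15 BT-474 sites (18.9%) were on vehicle and 1 growth factor, and 2 of those 15 were induced (22.9%). At that cutoff 3 of 17 sites on vehicle (34.4%) and 3 of 16 on EGF (28.2%) were in both lines, and of 17 on HRG 6 were in BT-474 only (28.7%) and 5 in SKBr3 only (45.3%).

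With 250 bp to each side of the peak centre, 5 of the 114 peaks had the ERRE (10.4% of all peaks of the 8 lists), 50 its core (37.2%), 2 the ERE (0.279%) and 27 an AP-1 word (15.6%). Over whole peaks the numbers were 7 (15.3%), 68 (57.8%), 5 (0.492%) and 59 (35.2%), because a wider stretch is searched. The peaks are not separate stretches, since a site is counted again for each list that called it. The 5 peaks with the ERE belong to 2 sites, both in GREB1.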

Other observations

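Several sites around the 6 genes lay just beyond the 20 kb window. Upstream of TFF1, a site about 22.8 to 23.4 kb from the start was called in BT-474 on vehicle, EGF and HRG, at percentiles 81.0, 75.7 and 80.6. It was absent from the SKBr3 and pSKBr3 lists and was at percentile 2.38 in LRSKBr3. Upstream of CA12, a site 25.7 to 26.0 kb from the 5′ end was in all 8 lists. It was at percentiles 88.2, 85.6 and 88.5 in BT-474, where it exceeded every CA12 peak within the window on vehicle, EGF and HRG. In SKBr3 it was at percentiles 65.5, 60.0 and 47.4. In GREB1, a site 23.9 to 24.0 kb into the gene was at percentiles 74.2, 25.4 and 69.8 in BT-474 and, in SKBr3, was called on vehicle alone at 0.0637.

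Around TFF3, which had few peaks within 20 kb, a site 50.6 to 50.8 kb downstream of a start was in all 8 lists. Its percentiles were 98.6, 99.8 and 98.6 in SKBr3 and 93.2, 94.1 and 95.5 in BT-474, with 98.8 in pSKBr3 and 98.7 in LRSKBr3. Its score was 3100, shared by other strong peaks, in SKBr3 on vehicle and HRG and in pSKBr3 and LRSKBr3. On EGF in SKBr3 it was 3123, so the order of these top percentiles was not read.

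The ERE word was also counted in all peaks, within 100 bp of the centre. Among BT-474 vehicle peaks with no SKBr3 vehicle peak, 50 of 17703 had it (0.282%, Wilson 95% interval 0.214 to 0.372%). Among SKBr3 vehicle peaks with no BT-474 vehicle peak, 12 of 17211 had it (0.0697%, 0.0399 to 0.122%). Peaks shared by the lines had it in 0.185% of BT-474 peaks and 0.200% of SKBr3 peaks. The same order of the unshared peaks was found on EGF (0.242% in BT-474 and 0.0634% in SKBr3) and on HRG (0.231% and 0.0678%). For the full ERRE the order was not the same under all treatments, with 4.67% in BT-474 and 6.03% in SKBr3 on vehicle, 4.33% and 6.25% on EGF, and 4.85% and 3.99% on HRG. Peaks are not replicates, and these shares were not tested.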
